A study of Homo sapiens with 4 samples.

Results

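PAX8, WT1, EMX2 and SOX17 encode transcription factors of the urogenital and Mullerian lineages, and MSLN, WFDC2, FOLR1 and BCAM encode surface or secreted proteins that are used as markers or targets in ovarian cancer. The DNA methylation of these 8 genes, of 20163 protein-coding genes, was described in separate clones of SKOV3, an established human epithelial ovarian cancer line. LY75 (the endocytic receptor DEC205) was suppressed in some clones and kept or restored in others. A gene was followed over its GENCODE span on GRCh37 (hg19) with 10 kb on each side, and every tile of 1000 bp that overlapped this window and stood in at least 1 of the 3 deposited tables of differentially methylated tiles was a member. This gave 44 tiles of the 72455 listed in any table.

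The Mullerian ducts give rise to the oviduct, the uterus and the upper vagina, and PAX8 and SOX17 keep this identity in oviduct epithelium and in carcinomas that resemble it. EMX2 and WT1 act earlier, in the urogenital ridge from which gonad, kidney and duct derive. Methylation of CpGs at a start site usually goes with a silent gene, while in a gene body or at a distant enhancer it has no fixed relation to expression.

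The data were 4 reduced representation bisulfite sequencing (RRBS) libraries, 1 per clone, with no replicate. All were stable SKOV3 derivatives. The clones of mesenchymal (M) phenotype were shC-S, with a control shRNA, and LY75-R-S (labelled Ly75-OV-S), made by expressing LY75 from a cDNA that resists the shRNA in the knockdown cells. The clones of epithelial (E) phenotype were sh-LY75-S, with a shRNA against LY75, and LY75-KO-S, in which LY75 was disrupted by CRISPR. LY75-R-S therefore carried the same shRNA as sh-LY75-S and was derived from it. Each clone stands for its condition alone, and differences between clones of 1 line and effects of LY75 cannot be told apart. The comparisons were sh-LY75-S against shC-S (here the knockdown comparison), LY75-KO-S against LY75-R-S (here the knockout comparison) and a mix of all 4 libraries, which shares every library with the other two. The tables hold no expression, so neither the LY75 level nor the lineage of the cells could be checked in them.

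Each value below is a difference in methylation in percentage points, E minus M, from the authors' deposited tables, so that a positive value is a tile hypermethylated in E cells. The deposited tables hold only tiles with a difference of at least 25 points and a q-value under 0.01. A tile that is not listed may have a smaller difference or too few reads. Level per library, number of reads and coverage are not in the values used, so the depth is unknown, no interval can be given for a difference, and the q-values compare the reads of libraries and not conditions. The signs of the knockdown comparison were kept as deposited. Their reading as E minus M rests on genes whose direction is known from the study, and the values of those genes are not given here. For the knockout comparison the sign rests on the mix, whose differences over the 4250 tiles listed in all 3 tables were fitted by 0.534 times the first comparison plus 0.435 times the second; read by the order of names in the deposited table, all signs of this comparison would turn.

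RRBS reads only the ends of fragments that the enzyme MspI cuts at CCGG. The 8 windows held 329 tiles, of which 127 have a CpG within a 50-base read of a fragment of 40 to 220 bp, and 43 of the 44 listed tiles (97.7%) were among these. In the knockdown comparison 36 member tiles were listed, in the knockout comparison 13, and in the mix 16. Of the 127 reachable tiles 28.3%, 9.45% and 12.6% were listed in turn, against 12.4%, 6.65% and 5.16% of the 384794 reachable tiles of the genome. No test was made of these shares, since tiles of 1 gene lie beside each other. The number of genes with a listed tile was 7, 6 and 7 of 8, where the background among all protein-coding genes was 66.7%, 53.4% and 44.0%.

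**Figure D1:**
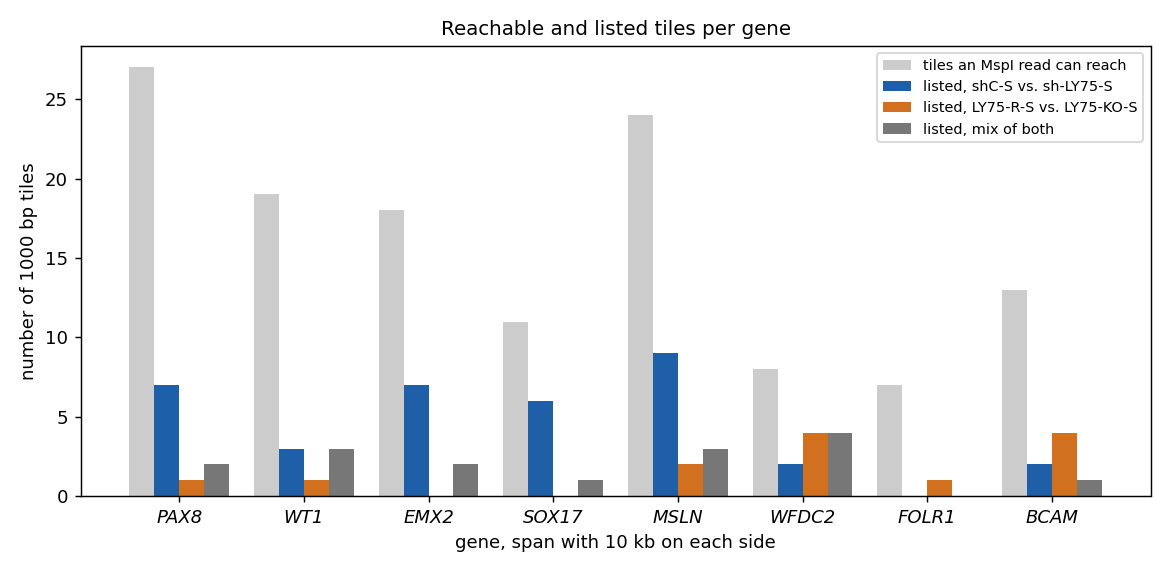
Number of 1000 bp tiles (y axis) in the window of each gene (x axis) that an MspI read can reach (light grey) and that each deposited table lists (blue the knockdown comparison, orange the knockout comparison, dark grey the mix). MSLN held most listed tiles in the knockdown comparison, with 9 of 24 reachable tiles, and EMX2 and SOX17 had none in the knockout comparison.

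PAX8, the paired-box factor that marks Mullerian epithelium, lies on the minus strand at chr2:113973574-114036498. All 3 of its tiles listed near the start were hypermethylated in sh-LY75-S, and all 3 of its intronic tiles were hypomethylated. The promoter is shown because it lies in a tile with one of the largest positive differences. The fragments with predicted reads in this tile begin between 114036026 and 114036467, inside the gene. Hardly any CpG of the promoter therefore falls in a predicted read, and the difference of the tile is not a measure of it. The promoter is the 250 bases before the start on GRCh37, chr2:114036499-114036748, minus strand, with its 11 CpGs in capitals.
PAX8 promoter: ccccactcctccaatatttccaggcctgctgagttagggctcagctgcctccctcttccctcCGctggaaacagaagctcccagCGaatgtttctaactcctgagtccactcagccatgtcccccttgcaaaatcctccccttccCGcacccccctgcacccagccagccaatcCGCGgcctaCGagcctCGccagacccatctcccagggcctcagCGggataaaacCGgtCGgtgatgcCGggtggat
Its CpG number is below the median of 18 over 18922 promoters of this length, and 69.5% of them hold as many or more. Tile chr2:114036001-114037000, which holds the start and the first exon, differed by 89.73 points in the knockdown comparison. The neighbouring tile chr2:114035001-114036000 differed by 91.71 points. The next, chr2:114034001-114035000, at 1498 bp inside the gene, differed by 75.49 points and was the only one of the 3 listed in the mix, at 30.5 points. None of the 3 was listed in the knockout comparison, although an MspI read reaches each of them.

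The intron tiles of PAX8 went the other way. Tile chr2:114007001-114008000, in an intron at 28498 bp from the start, differed by -99.31 points in the knockdown comparison (q = 1.04e-99), by -31.67 in the knockout comparison (q = 4.88e-06) and by -69.49 in the mix (q = 9.62e-78). It is the only PAX8 tile listed in all 3 tables, and it rests on little sequence: a single CpG of the tile falls within an MspI read, at the end of fragment chr2:114006900-114007008, printed on the minus strand with CpGs in capitals.
PAX8 intron fragment: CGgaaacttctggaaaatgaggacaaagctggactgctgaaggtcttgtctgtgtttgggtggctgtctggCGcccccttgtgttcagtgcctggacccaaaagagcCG
The other intron tiles, chr2:113990001-113991000 and chr2:114030001-114031000, differed by -30.21 and -70.59 points in the knockdown comparison. The last PAX8 tile lay downstream of the gene, at chr2:113970001-113971000, and differed by 71.07 points there. It and the tiles at 114030001 and 114034001 also lie at an exon or within 2 kb of a start of PAX8-AS1. This is the antisense RNA of the locus, so their values belong to both genes.

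WT1, the zinc-finger factor of the urogenital ridge that is stained in serous carcinoma, lies on the minus strand at chr11:32409321-32457110. Its start region held hypermethylated tiles in every table, with no tile common to the single comparisons, and a tile just upstream was hypomethylated. Tile chr11:32455001-32456000, over an annotated start and exon, lies 1085 bp inside the gene from the start of the main transcript. It differed by 46.75 points in the knockdown comparison and by 27.96 in the mix. Tile chr11:32456001-32457000 also holds an annotated start and lies 85 bp from that of the main transcript. It was the richest listed tile of WT1, with 84 reachable CpGs, and was listed in the mix alone, at 25.08 points. Tile chr11:32459001-32460000, upstream of the start, was listed in the knockout comparison alone, at 49.06 points.

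The next WT1 tile upstream, chr11:32460001-32461000, had the opposite sign, -43.21 points in the knockdown comparison and -44.26 in the mix. One of its fragments, chr11:32460676-32460851, is printed on the minus strand, CpGs in capitals, to show how dense in CpGs this hypomethylated stretch is.
WT1 upstream fragment: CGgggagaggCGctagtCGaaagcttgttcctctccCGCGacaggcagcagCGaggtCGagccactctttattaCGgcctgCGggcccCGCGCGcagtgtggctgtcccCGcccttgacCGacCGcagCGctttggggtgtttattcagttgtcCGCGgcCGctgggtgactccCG
The tiles with these opposite signs lie within 2 kb of the start and beyond it. The tiles at 32455001, 32456001, 32459001 and 32460001 all lie at an exon of WT1-AS or within 2 kb of a start of it. WT1-AS is transcribed away from WT1. The last WT1 tile, chr11:32449001-32450000 over an internal exon, differed by -37 points in the knockdown comparison.

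EMX2, a homeobox factor needed for the urogenital system and active in uterine tissue, lies on the plus strand at chr10:119301956-119309057. All 7 of its tiles listed in the knockdown comparison were hypomethylated in sh-LY75-S, none was listed in the knockout comparison, and no tile within 2 kb of an EMX2 start was listed in any table, although 4 of the 6 tiles there are reachable. Of the 7 tiles 5 lay upstream, inside the span of the antisense gene EMX2OS. From the farthest to the nearest they began at 119291001, 119292001, 119294001, 119295001 and 119296001. Their differences were -92.37, -56.67, -81.9, -69.88 and -25.81 points. The smallest difference was thus at the tile nearest to the gene. The mix listed only the one at 119294001, at -54.56 points, and its fragment chr10:119294828-119294947, plus strand, with CpGs in capitals, is printed as one of the 6 fragments whose reads fall in this tile.
EMX2 upstream fragment: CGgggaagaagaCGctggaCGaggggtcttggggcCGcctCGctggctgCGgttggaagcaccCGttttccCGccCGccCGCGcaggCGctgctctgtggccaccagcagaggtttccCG
Of its 13 CpGs 12 fall within a read, out of 38 reachable CpGs of the tile. In the gene body, intron tile chr10:119306001-119307000 differed by -37.91 points. It also lies at an exon of EMX2OS or within 2 kb of a start of it. Downstream, tile chr10:119310001-119311000 differed by -61.5 points and by -29.79 in the mix.

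**Figure D2:**
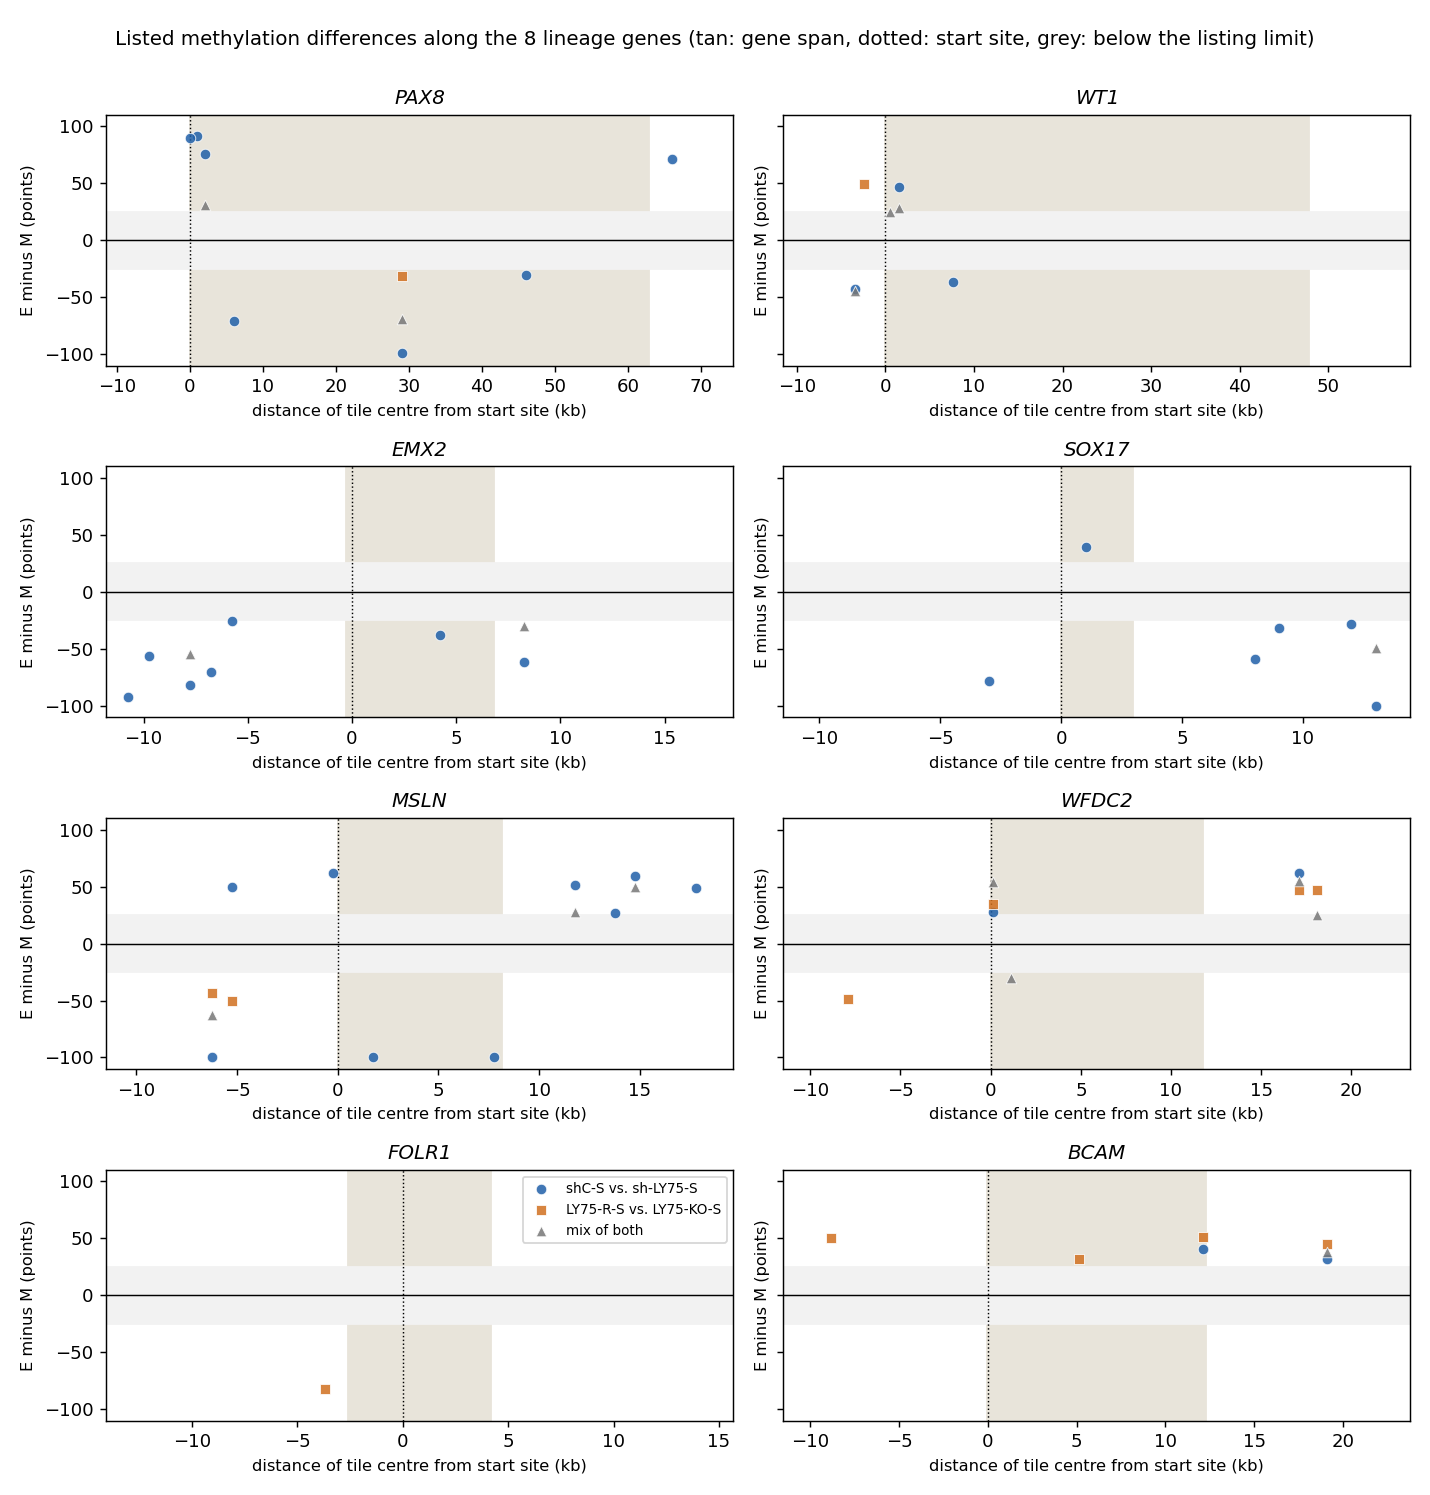
Difference in methylation, E minus M in points (y axis), of every listed tile against the distance of its centre from the start site in the direction of transcription (x axis, kb), in a panel per gene; blue circles are the knockdown comparison, orange squares the knockout comparison and grey triangles the mix, and the grey band is the range below 25 points that the tables leave out. PAX8 has tiles at 75.49 to 91.71 points beside its start and -99.31 points in its body, all EMX2 points lie below 0, and all BCAM points lie above it.

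SOX17, the HMG-box factor of Mullerian duct and endoderm that partners PAX8 in ovarian carcinoma, spans chr8:55370495-55373452 on the plus strand. Its own exon was hypermethylated in sh-LY75-S and all 5 tiles around the gene were hypomethylated. Tile chr8:55371001-55372000, over an exon at 506 bp from the start, differed by 39.08 points in the knockdown comparison (q = 1.79e-169). Tile chr8:55367001-55368000, at 2495 bp before the start, differed by -78.06 points. Downstream, the tiles beginning at 55378001, 55379001, 55382001 and 55383001 differed by -58.8, -31.68, -28.07 and -100 points. The last of them was the only SOX17 tile in the mix, at -48.87 points. These 4 lie over or within 2 kb of the start of a pseudogene (ENSG00000274310) and are nearer to it than to SOX17. No SOX17 tile was listed in the knockout comparison.

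MSLN encodes mesothelin, a surface glycoprotein of mesothelium that ovarian carcinomas often express, and lies at chr16:810734-818865 on the plus strand. It had the most listed tiles of the 8 genes, 9 in the knockdown comparison, and they ran from -100 to 61.83 points with both signs within 2 kb of a start. Tile chr16:810001-811000, which holds the start, differed by 61.83 points, while tile chr16:812001-813000, over exons 1267 bp further in, differed by -100. Tile chr16:818001-819000 at the last exon also differed by -100 points. This tile lies at an exon or within 2 kb of a start of MIR662 and of ENSG00000279136 as well. None of these 3 tiles was in another table. The 4 downstream tiles, beginning at 822001, 824001, 825001 and 828001, differed by 50.93, 26.84, 59.26 and 48.72 points. They lie at exons or within 2 kb of starts of MSLNL, the neighbouring mesothelin-like gene, whose values they equally are. The tile at 822001 also lies at or near MIR662. Those at 822001 and 825001 were in the mix at 27.63 and 49.67 points.

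Upstream of MSLN a pair of adjacent tiles was listed in both single comparisons. Tile chr16:804001-805000 differed by -100 points in the knockdown comparison, by -43.6 in the knockout comparison and by -62.71 in the mix. Tile chr16:805001-806000 differed by 50 points in the knockdown comparison (q = 1.73e-13) and by -50 in the knockout comparison (q = 3.97e-11), and the mix does not list it. It was the only member tile with opposite signs, which would be alike with the order of subtraction of the knockout comparison reversed. LY75-R-S was derived from sh-LY75-S, and they stand on opposite sides, M and E, of the single comparisons. Whether this bears on the opposite signs was not tested. Fragment chr16:804931-805010, plus strand, spans the border of the tiles and is printed with its 6 CpGs in capitals.
MSLN upstream fragment: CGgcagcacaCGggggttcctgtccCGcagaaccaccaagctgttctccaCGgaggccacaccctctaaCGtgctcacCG
Reads are counted here by the tile in which they start. Of the 9 MspI reads that start in the tile with opposite signs, 4 match a single place of the genome after bisulfite conversion. The others match up to 9984 places. Among the 9 is the read from the second end of the printed fragment, which has a single place and lies mostly in the neighbouring tile. The 1 read that starts in that neighbour has a single place.

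**Figure D3:**
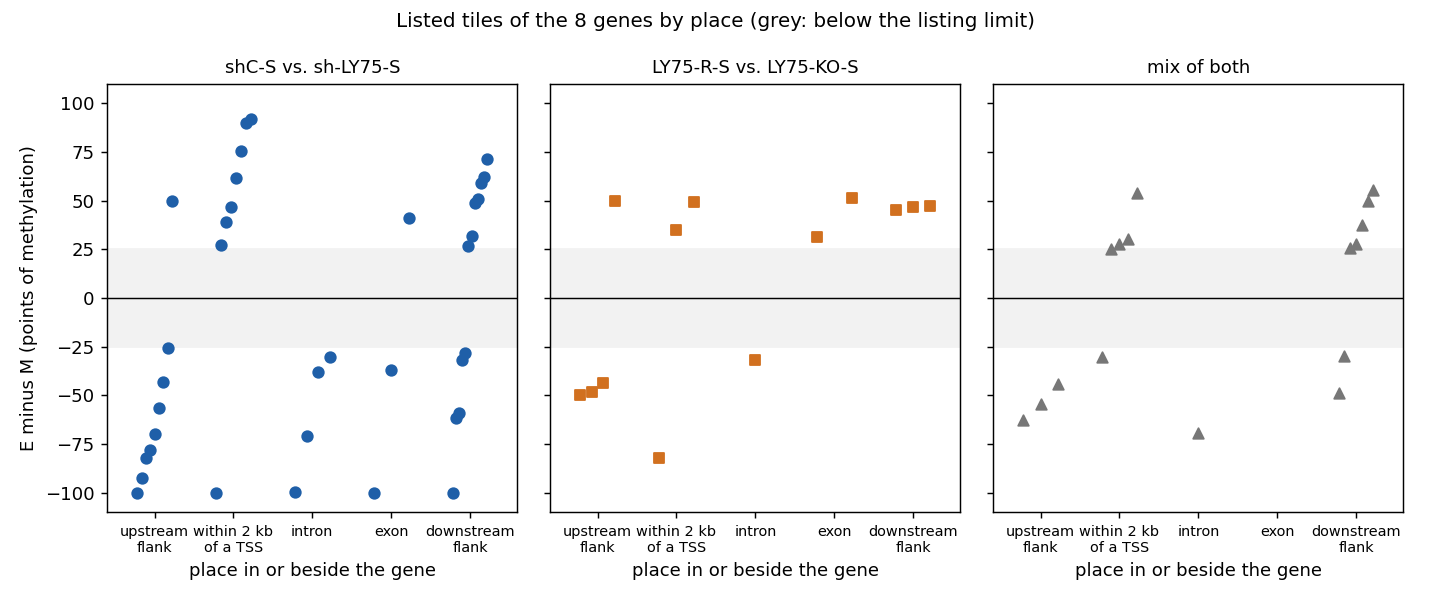
Difference in methylation, E minus M in points (y axis), of the listed tiles grouped by place in or beside the gene (x axis), in a panel per table; points within a place are spread sideways in order of value, and the grey band is the range the tables leave out. Within 2 kb of a start 7 of 8 tiles of the knockdown comparison were positive (55.1% over all genes), and in introns 0 of 4 were (63.9% over all genes), with 3 of these 4 in PAX8.

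WFDC2 encodes HE4, the secreted protein measured in serum in ovarian cancer, and lies at chr20:44098393-44110172 on the plus strand. It was the only one of the 8 genes whose start tile was listed in all 3 tables, and it was hypermethylated in E cells in each. The 250 bases before the start, chr20:44098143-44098392, plus strand, lie in that tile and are printed with their 19 CpGs in capitals.
WFDC2 promoter: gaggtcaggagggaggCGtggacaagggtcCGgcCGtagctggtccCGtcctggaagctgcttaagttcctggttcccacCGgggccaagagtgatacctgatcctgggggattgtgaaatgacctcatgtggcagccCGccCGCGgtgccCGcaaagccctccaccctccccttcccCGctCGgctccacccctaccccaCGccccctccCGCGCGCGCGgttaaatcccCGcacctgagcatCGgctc
As many CpGs or more are held by 49.9% of promoters. Tile chr20:44098001-44099000 differed by 27.23 points in the knockdown comparison, by 34.7 in the knockout comparison and by 54.02 in the mix. The value of the mix lies outside the range of the others, as it does for 913 (21.5%) of the 4250 tiles in all 3 tables. The adjoining tile chr20:44099001-44100000, at 608 bp into the gene, was listed in the mix alone and was negative, at -30.42 points. Downstream, tile chr20:44115001-44116000 differed by 61.98, 47.07 and 55.27 points in the 3 tables. Tile chr20:44116001-44117000 differed by 46.88 points in the knockout comparison and 25.43 in the mix. Both lie near the start or an exon of a lncRNA (ENSG00000237464), and of the 7 reads in the second 4 have a single place. The upstream tile chr20:44090001-44091000 differed by -48.31 points in the knockout comparison and is the 1 listed tile with 0 CpGs in the predicted reads.

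FOLR1 encodes folate receptor alpha, a surface protein to which antibody-drug conjugates are directed, and lies at chr11:71900602-71907367 on the plus strand. It had the fewest reachable tiles, 7, and a single listed tile. Tile chr11:71899001-71900000, which ends 602 bp before the first annotated start, differed by -82.22 points in the knockout comparison (q = 6.48e-29), and neither other table listed it. This was the largest difference among the 13 member tiles of that comparison, and it lies at 3184 bp from the start of the main transcript, whose promoter holds 3 CpGs. Fragment chr11:71899966-71900177, plus strand, which begins in the tile, is printed with its CpGs in capitals to show how few the measurement can rest on.
FOLR1 upstream fragment: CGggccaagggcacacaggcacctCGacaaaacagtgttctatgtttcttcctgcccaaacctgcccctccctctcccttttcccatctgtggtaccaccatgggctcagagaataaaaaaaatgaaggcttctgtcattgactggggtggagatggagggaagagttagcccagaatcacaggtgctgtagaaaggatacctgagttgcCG

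BCAM encodes the Lutheran glycoprotein, a laminin receptor of basal epithelial surfaces, and lies at chr19:45312328-45324678 on the plus strand. Every listed tile was hypermethylated in E cells, in every table that held it, and none lay within 2 kb of a BCAM start. The tiles at 45303001 and 45317001 were listed in the knockout comparison alone, so their sign rests on the fit of the mix. Tile chr19:45324001-45325000, at the last exon, differed by 40.82 points in the knockdown comparison and by 51.22 in the knockout comparison, with q-values of 2.56e-08 and 0.000436, the weakest of the tiles listed in both. Tile chr19:45331001-45332000, downstream, differed by 31.83, 45.11 and 37.48 points in the 3 tables. Of its 10 MspI reads only 3 match a single place after conversion, and the others match up to 1623. Tile chr19:45317001-45318000, over an internal exon, differed by 31.49 points in the knockout comparison. Tile chr19:45303001-45304000 differed by 50 points in the same table. It lies at an exon or within 2 kb of a start of CBLC, an upstream neighbour.

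Across the 8 genes, 16 of 36 tiles (44.4%, 95% Wilson interval 29.5 to 60.4) were positive in the knockdown comparison, where 64.7% of all listed tiles were. In the knockout comparison 8 of 13 (61.5%, 35.5 to 82.3) were positive, with 54.7% of all tiles, and in the mix 9 of 16 (56.2%, 33.2 to 76.9), with 65.0%. The intervals cover counting error alone and treat neighbouring tiles as separate. The median absolute difference of the member tiles was 59.0, 47.1 and 40.9 points in turn, and that of all listed tiles 50.0, 41.9 and 36.9. Of the 22 member tiles with at least 50 points in the knockdown comparison the mix listed 9, where 43.8% of all such tiles were in the mix. At -100 points stood 4 tiles, 3 of MSLN and 1 of SOX17, with q-values between 2.93e-19 and 1.13e-45, while the EMX2 tile of -81.9 points and the PAX8 tile of 75.49 points had q-values of 0. The order of q-values is thus not the order of the differences.

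By place, signs were counted beside those of all protein-coding genes placed in the same way, with no test made. Within 2 kb of a start, 7 of 8 tiles in the knockdown comparison were positive, 3 of them of PAX8, where 55.1% of such tiles of all genes were. In the knockout comparison 2 of 3 and in the mix 4 of 5 were positive there, where 52.9% and 54.9% of all were. In introns 0 of 4, 0 of 1 and 0 of 1 were positive, where 63.9%, 55.8% and 65.5% of all were, and 3 of the 4 intron tiles belong to PAX8. In the upstream flank 1 of 9, 1 of 4 and 0 of 3 were positive, where 63.3%, 56.1% and 62.1% of all were, and 5 of the 9 belong to EMX2. The intron counts, and the upstream count of the knockdown comparison, are thus largely those of 1 gene each. The upstream tiles of the knockout comparison came from MSLN, WFDC2 and BCAM. Those of the mix came from WT1, EMX2 and MSLN. In exons 1 of 3 and 2 of 2 tiles of the single comparisons were positive, where 62.6% and 55.5% of all were, and the mix listed no exon tile of the 8 genes, where 61.9% of all were positive. The downstream flank had 7 of 12, 3 of 3 and 5 of 7 positive, where 58.5%, 53.7% and 58.1% of all were. The start tiles came from PAX8, WT1, SOX17, MSLN and WFDC2 in the knockdown comparison, from WT1, WFDC2 and FOLR1 in the knockout comparison, and from PAX8, WT1 and WFDC2 in the mix. That is 5, 3 and 3 of 8 genes, where 30.1%, 14.2% and 15.2% of all protein-coding genes had a listed tile within 2 kb of a start.

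Between the single comparisons 7 member tiles were listed in both and 6 had the same sign. These comparisons share no library, but they are linked by descent, as LY75-R-S was derived from sh-LY75-S. Over all genes 8345 tiles were listed in both, and 52.6% had the same sign. The 6 tiles were those of PAX8 at 29.0 kb, MSLN at -6.23 kb, WFDC2 at 0.11 and 17.11 kb and BCAM at 12.14 and 19.14 kb from the start. In this order they hold 1, 5, 23, 3, 4 and 15 reachable CpGs, so several rest on few. Only the WFDC2 tile at 0.11 kb lay within 2 kb of a start. With the order of subtraction of the knockout comparison reversed, 1 of the 7, MSLN at -5.23 kb, would have the same sign.

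**Figure D4:**
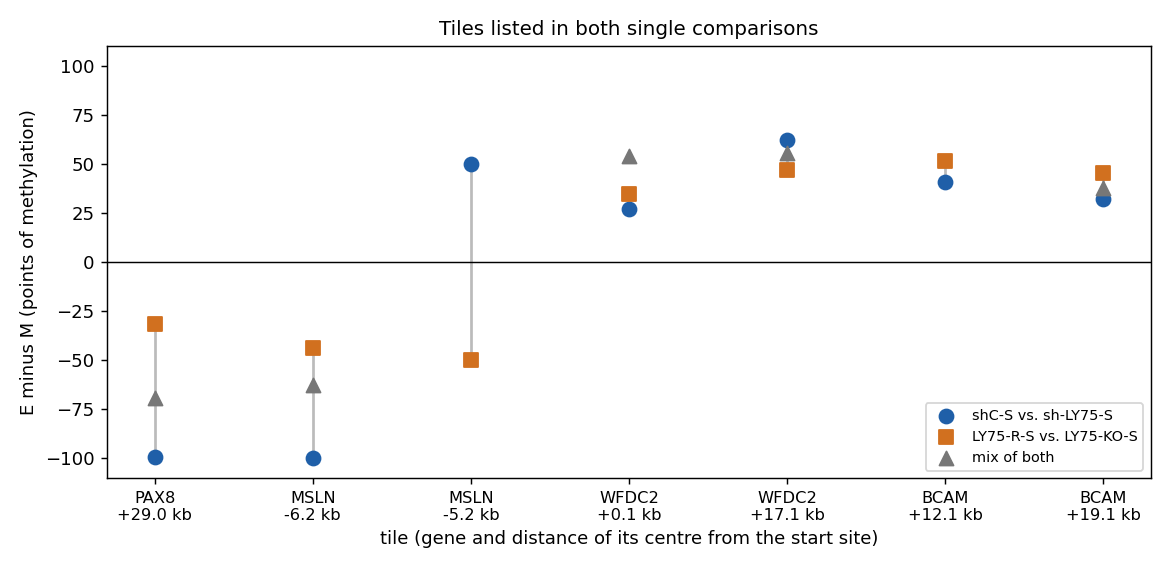
Difference in methylation, E minus M in points (y axis), of the 7 tiles listed in both single comparisons (x axis, gene and distance of the tile's centre from its start), with the mix where listed; blue circles are the knockdown comparison, orange squares the knockout comparison and grey triangles the mix, and lines join the single comparisons. Only the MSLN tile at -5.23 kb crosses 0, from 50 to -50 points.

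A wider list of 26 lineage genes was counted in the same way within 2 kb of a start. Of all protein-coding genes 30.1% had a listed tile there in the knockdown comparison, 14.2% in the knockout comparison and 15.2% in the mix. In the knockdown comparison 15 of them had a listed tile, 6 with positive tiles only, 7 with negative tiles only and 2 with both, where 49.4% and 40.8% of all genes with such a tile had positive or negative tiles only; in the knockout comparison there were 4 and in the mix 8. Among the 15 genes of Mullerian and gonadal development 8 had a tile in the knockdown comparison, 1 with positive tiles only, 5 with negative tiles only and 2 with both. LHX9, a LIM-homeobox factor of the gonad, had 6 negative tiles, the largest at -100 points, and was also negative in the knockout comparison, at -54.4. GATA4, the zinc-finger factor of gonad and heart, had 3, the largest at -76.3 points. HOXA11, which patterns the uterus, had 2, the largest at -98.8 points, and -45.8 in the mix. NR2F2, a nuclear receptor of the duct stroma, was the gene with positive tiles only, 2 of them, with 52.3 points as the largest and 30.2 in the mix. PAX2, the relative of PAX8 in kidney and duct, had 2 positive and 3 negative tiles, the largest at -73.1 points. HOXA10, also of the uterus, had 1 positive and 2 negative tiles, the largest at 55.7 points, and 42.9 in the mix.

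Of the 5 oviduct and endometrial genes 4 had a tile in the knockdown comparison, 3 of them positive, and of the 6 tumour markers 3, with 2 positive. These numbers are too small to set against the shares of all genes. The negative tumour marker was EPCAM, at -31.7 points. CD24, also on the list of tumour markers, was not found in the annotation and was not counted. PGR, the progesterone receptor, had 2 tiles, the largest at 86.9 points. VTCN1, the surface protein B7-H4, differed by 84.5 points and by 72.4 in the mix. OVGP1, which encodes oviductin, was positive in all 3 tables, at 36.9, 27.8 and 28.7 points. MECOM, a zinc-finger factor of oviduct epithelium, had opposite signs, with -100 points in the knockdown comparison, 31.2 in the knockout comparison and -60.2 in the mix.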

How the data were processed

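RRBS was performed as a service in the 4 SKOV3 clones, with MspI digestion, bisulfite conversion and single 50-base reads. The labels' tool list names Trim Galore 0.4.1, Bismark 0.16.1, FastQC and methylKit, while their protocol names Trimmomatic. The minimum coverage and the way in which the mix was combined are not given in the sources used here. The authors deposited 3 tables of 1000 bp tiles on hg19 with the difference in percent methylation, the p-value and the q-value, cut at 25 points and q under 0.01; the methods text names a laxer adjusted p. These columns are the authors' own comparisons, and no column holds a single library. The methods text names no molecular identifiers. Without them 1 molecule may be counted in several reads, which would make such p-values too small.

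Tiles were assigned with GENCODE release 44 on GRCh37 to the first that held of within 2 kb of a start, exon, intron, upstream and downstream flank. All 8 genes were named, with values for tiles near a start, tiles in several tables and the largest difference per gene and table; the remaining tiles were added because positions were asked for each. Members and lists were chosen with earlier results of these data known. A sequence of the downstream BCAM tile is not reported here. MspI fragments, promoter CpGs and exact matches of converted reads were computed from the reference, and counting was tested on simulated data. The scripts ran on Python 3.11.15 with pandas 2.3.3, numpy 2.4.6, scipy 1.17.1, numba 0.67.0 and matplotlib 3.10.9.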

Additional observations from a re-analysis of the deposited data

Results flagged for a closer look

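The MSLN tile chr16:805001-806000, 4734 bp before the start, had opposite signs in the single comparisons: 50 points in the knockdown comparison and -50 points in the knockout comparison. The difference between the comparisons was not tested, since each has 1 library per clone and no counts. The signs would be alike if the order of subtraction in the second table were the reverse. LY75-R-S, the M clone of the knockout comparison, was derived from sh-LY75-S, the E clone of the knockdown comparison. Whether this bears on the signs was not tested. Of the 9 MspI reads of the tile 5 match more than a single place of the genome.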

How the results depend on the processing

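Of 50 recomputed counts and shares, 32 stayed within 1.5 times the count or, for a share, within its 95% interval and without crossing 50%, among them all under q below 1e-10 and all with protein-coding transcripts alone. With a 5 kb flank the knockout comparison had 8 tiles and the mix 10. With no flank the knockdown comparison had 15 tiles (53.3% positive), the knockout comparison 4 and the mix 6, and 3 tiles were in both single comparisons, all 3 with the same sign. At 50 points or more there were 22, 4 and 5 tiles, 40% of those of the mix positive, with 1 in both single comparisons and 0 with the same sign. Without tiles of other genes the knockdown comparison had 23 tiles and the mix 10. With the order of subtraction reversed, 38.5% of the tiles of the knockout comparison were positive and 1 of the tiles in both single comparisons had the same sign. Fewer tiles enter under each narrower window or threshold by construction. No paired analysis was possible because each clone had 1 library and no result came from a test; for the same reason no library could be left out. The depth is unknown, so a tile missing from a table cannot be told from a small difference.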
